A study of Mus musculus with 12 samples.

Results

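Expression of the cathepsins, the subunits of the vacuolar H+-ATPase (V-ATPase) and a set of named lysosomal genes was followed in brain tissue around a hematoma. Members were chosen by symbol alone: every gene whose symbol is Cts with 1 further letter or begins with Atp6v or Atp6ap and a digit, and 12 genes given by name (Lamp1, Lamp2, Cd63, Cd68, Mcoln1, Lipa, Hexa, Gusb, Lgmn, Grn, Tfeb and Tfe3). This gave 56 of the 21956 genes in the table, 18 with cathepsin symbols, 26 with V-ATPase symbols and the 12 named genes. The rule uses no measured value.

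The series held 12 poly(A) RNA-seq libraries, each from 1 mouse, in 4 groups of 3. Sham-Fabp4fl/fl and ICH-Fabp4fl/fl mice carried floxed Fabp4 alleles, and Sham-Fabp4CKO and ICH-Fabp4CKO mice carried them together with a tamoxifen-inducible Cre under the Tmem119 promoter, which is active in microglia. Intracerebral hemorrhage (ICH) was induced with collagenase in the right striatum, sham surgery left the collagenase out, and tissue next to the hematoma was taken at 48 h after ICH. In the Fabp4CKO mice, Cre was induced by daily tamoxifen (150 mg/kg over 7 days), and surgery followed 14 days later. Whether the Fabp4fl/fl mice also received tamoxifen, the age and sex of both floxed lines and the time of sham sampling are not given in the sources used here, so that genotype and tamoxifen cannot be told apart. The libraries hold RNA of whole tissue, in which fewer cells of a type and less RNA per cell cannot be told apart.

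Lysosomes break down proteins, lipids and carbohydrates with acid hydrolases, and microglia and macrophages use them to digest phagocytosed cells and blood. The V-ATPase acidifies the lumen: its cytosolic V1 sector hydrolyses ATP and its membrane sector V0 passes protons. Several V-ATPase subunits have paralogues that differ in the cells that use them, and cathepsins are proteases that are made as inactive precursors and mature at acid pH.

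Total counts per library were 15650813 to 22406216. Fabp4, the targeted gene, had 24 to 63 reads in ICH-Fabp4fl/fl, 3 to 10 in ICH-Fabp4CKO, 1 to 2 in Sham-Fabp4fl/fl and 0 in each Sham-Fabp4CKO library. None of 8 markers of striatal projection neurons, among them Ppp1r1b and Drd1, was at 0 in any library, which does not settle how much striatum each piece held. Their summed level was 1179 to 5242 counts per 1000000 (CPM) and differed within groups, with 1428, 1645 and 4427 CPM in Sham-Fabp4fl/fl. The ICH-Fabp4CKO mouse 1 library had 1 read from Y-linked genes, against 1302 to 2251 in the other 11. Within ICH-Fabp4CKO, mouse 2 stood apart from mice 1 and 3 in most members, and values with and without these libraries are given below.

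ICH raised most cathepsins, the other lysosomal enzymes and most lysosomal membrane proteins in both genotypes, while the V-ATPase genes moved in mixed directions. Of the 56 members, 45 passed the filter on low counts for ICH-Fabp4fl/fl against Sham-Fabp4fl/fl. With edgeR's quasi-likelihood F-test and p-values adjusted over all genes tested (Benjamini-Hochberg, threshold 0.05), 26 rose, 9 fell and 10 did not pass. Over all 14719 genes tested, 26.2% rose and 19.3% fell. The median log2 fold change was 0.75 over the tested members and 0.02 over all genes. Outside the V-ATPase, 23 of 25 tested members rose and 0 fell, with a median of 2.42. Within it, 3 of 20 rose and 9 fell, with a median of -0.50. All ICH libraries lay above all sham libraries for 27 members and below them for 12, against 34.4% and 27.4% of genes. Leaving out 1 library in turn gave 21 to 27 higher members, and 4 lower members without Sham-Fabp4fl/fl mouse 2 (29.1% of all genes called) or without ICH-Fabp4fl/fl mouse 2 (28%), against 45.6% with all 6 libraries. Ctse and Ctsw, with at most 7 reads in a Sham-Fabp4fl/fl library, passed the filter only through the ICH libraries. Without these members 24 of 43 rose and 9 fell, with a median of 0.65, and outside the V-ATPase 21 of 23 rose, with a median of 2.4.

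In ICH-Fabp4CKO against Sham-Fabp4CKO, 46 members were tested, of which 27 rose and 2 fell, against 24.5% and 11.1% of 14737 genes. The median was 1.08 over the members and 0.01 over all genes. Groups did not overlap for 28 members higher and 8 lower after ICH, against 33.2% and 28.9% of genes. Outside the V-ATPase 23 of 25 again passed as higher, with a median of 3.75, or 3.47 when Ctsw, which had 0 reads in every Sham-Fabp4CKO library, was set at its lower bound, which left the median over all tested members at 1.08. Atp6v0d2, Ctse and Ctsw, with at most 3 reads in a Sham-Fabp4CKO library, passed the filter only through the ICH libraries, so that their calls follow from it. Without them 24 of 43 members rose and 2 fell, with a median of 1.03, and outside the V-ATPase 21 of 23 rose, with a median of 3.47. The count of higher members was 12, 10 and 10 without Sham-Fabp4CKO mouse 1, 2 or 3, with 0 lower in each. The calls over all genes moved with it: 35.6% of genes passed with all 6 libraries, and 5.66%, 5.62% and 5.03% without these mice. Without ICH-Fabp4CKO mouse 1 it was 19 higher and 0 lower members (10.6% of genes), without mouse 2 it was 28 and 8 (67.5%), and without mouse 3 it was 24 and 1 (20.4%).

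**Figure D1:**
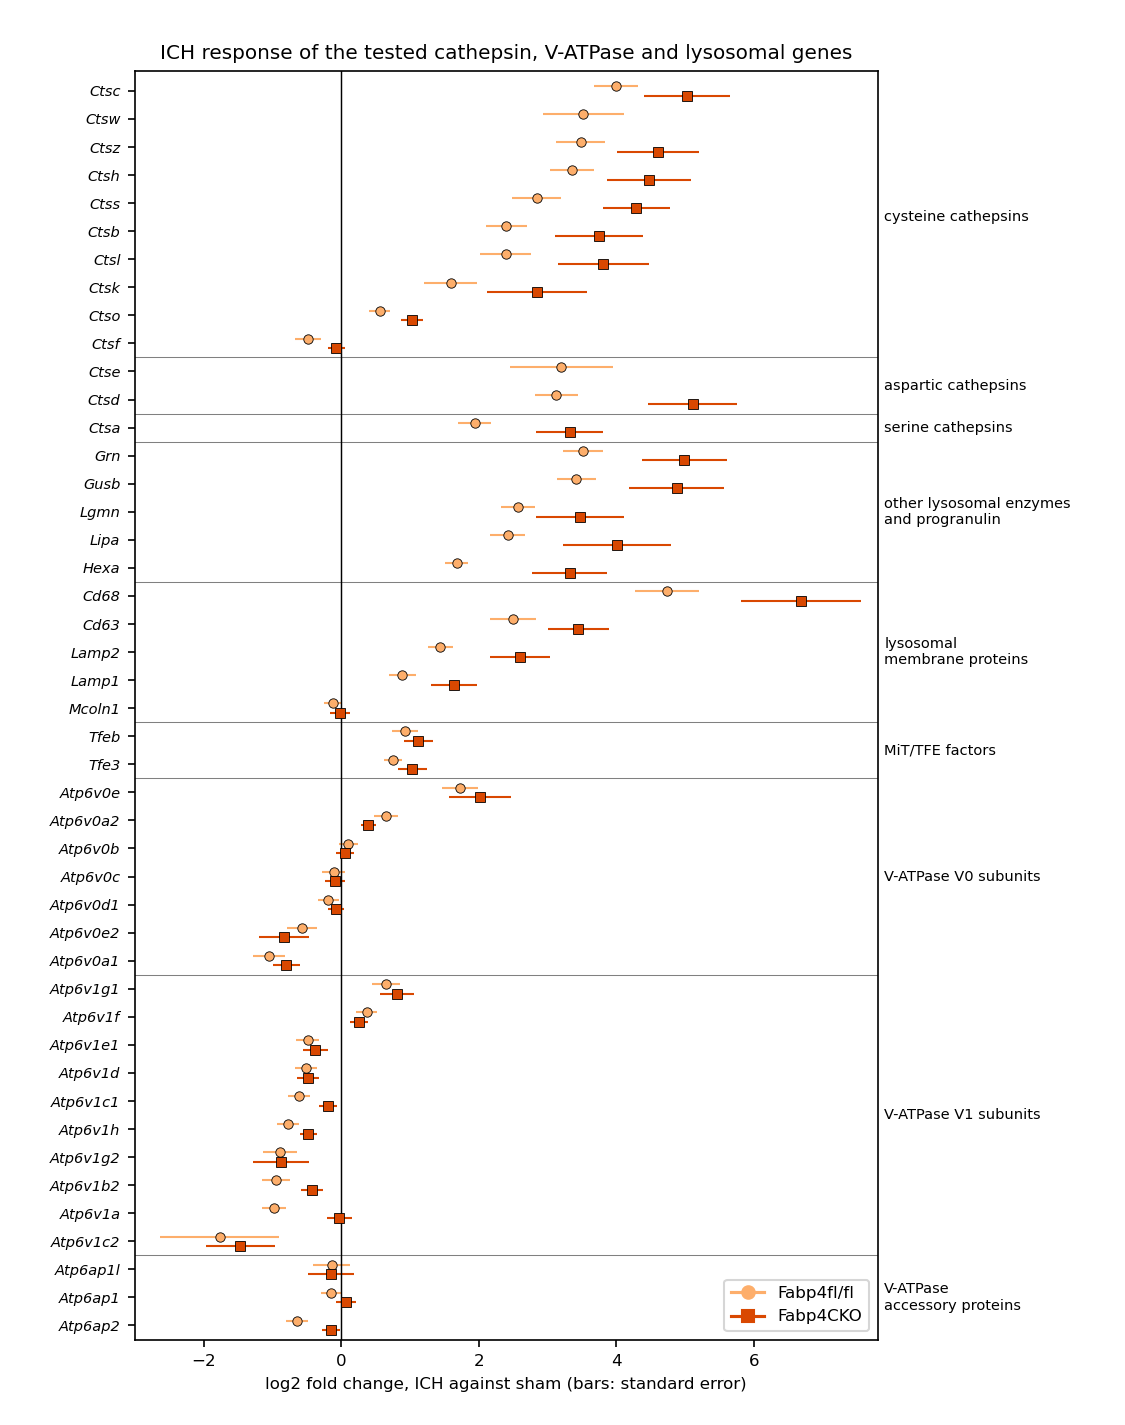
Log2 fold change of ICH against sham (horizontal axis) for the tested members, ordered by role, in Fabp4fl/fl (circles) and Fabp4CKO mice (squares), with bars for the standard error. Cathepsins and other enzymes lie mostly to the right of 0 in both genotypes and most V1 subunits to its left. Ctsw and Ctse in Fabp4CKO and Atp6v0d2 are not drawn, because a sham group had almost no reads.

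Cathepsin D (Ctsd), an aspartic endopeptidase, was the most abundant member per kilobase of exon in all 4 groups. Its CPM was 648, 482 and 521 in the 3 Sham-Fabp4fl/fl mice and 450, 481 and 458 in the Sham-Fabp4CKO mice. After ICH it was 6701, 4782 and 3418 in Fabp4fl/fl and 16435, 5336 and 26052 in Fabp4CKO mice. Every ICH library lay above every sham library, and ICH-Fabp4CKO mouse 2 lay within the range of ICH-Fabp4fl/fl. The log2 fold change was 3.13 ± 0.31 (SE) in Fabp4fl/fl (adjusted p = 0.000518) and 5.11 ± 0.65 in Fabp4CKO (adjusted p = 0.00611). Ctsd alone took 0.0467% to 0.0678% of all counts in sham libraries, 0.342% to 0.602% in ICH-Fabp4fl/fl, and 1.62%, 0.542% and 2.36% in the ICH-Fabp4CKO libraries. By that share it ranked 126 to 255 among all genes in sham libraries and 2, 10 and 2 in the ICH-Fabp4CKO libraries. The 18 cathepsin symbols together took 0.155% to 0.202% of counts in sham, 0.774% to 1.4% in ICH-Fabp4fl/fl and 1.02% to 4.51% in ICH-Fabp4CKO libraries.

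Of the 14 cysteine cathepsin symbols, 10 were tested and 9 rose in each genotype, against 26.2% and 24.5% of all genes. The 9 include Ctsw, which passed the filter only through the ICH libraries, so that its calls follow from it. Ctsc, a dipeptidyl peptidase that activates granule serine proteases, rose most among those tested in fl/fl mice. It stood at 14.5, 13.1 and 14.7 CPM in Sham-Fabp4fl/fl and 8.92, 9.94 and 9.43 CPM in Sham-Fabp4CKO, against 318, 245 and 133 CPM in ICH-Fabp4fl/fl and 376, 93.5 and 456 CPM in ICH-Fabp4CKO. ICH and sham libraries did not overlap, and the 2 ICH groups did. The log2 fold change was 3.99 ± 0.32 in Fabp4fl/fl (adjusted p = 0.00035) and 5.03 ± 0.63 in Fabp4CKO (adjusted p = 0.00599).

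The carboxypeptidase Ctsz and the aminopeptidase Ctsh rose by 3.48 and 3.35 in Fabp4fl/fl and by 4.61 and 4.47 in Fabp4CKO on the log2 scale. Ctss, which trims the invariant chain in antigen-presenting cells, rose by 2.84 and 4.29. The endopeptidases Ctsb and Ctsl rose by 2.4 and 2.39 in Fabp4fl/fl and by 3.75 and 3.81 in Fabp4CKO. Ctsb, the second cathepsin by level in ICH-Fabp4CKO, was 664, 593 and 624 CPM in Sham-Fabp4fl/fl, 649, 680 and 611 in Sham-Fabp4CKO, 4770, 3220 and 2263 in ICH-Fabp4fl/fl and 8717, 2600 and 14707 in ICH-Fabp4CKO, with no overlap of ICH and sham. Ctsk, known for collagen breakdown by osteoclasts, rose by 1.59 and 2.85 at a mean of 8.91 CPM in ICH-Fabp4fl/fl. Ctso rose least, by 0.56 and 1.03. Ctsf was the tested cathepsin that did not pass: its log2 fold change was -0.49 ± 0.19 in Fabp4fl/fl (adjusted p = 0.066), where 0.0345 was reached with DESeq2, and -0.07 ± 0.12 in Fabp4CKO. Its CPM was 51.4, 54.6 and 43.0 in Sham-Fabp4fl/fl, 47.1, 44.6 and 46.3 in Sham-Fabp4CKO, 30.6, 34.7 and 43.6 in ICH-Fabp4fl/fl and 38.5, 48.8 and 44.0 in ICH-Fabp4CKO. The groups overlapped in Fabp4CKO, and in Fabp4fl/fl the highest ICH library passed the lowest sham library.

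Ctsw and Ctse were counted near the limit of these depths. Ctsw, a protease of cytotoxic lymphocytes, stood at 0.193, 0.219 and 0.103 CPM in Sham-Fabp4fl/fl, at 0 in all 3 Sham-Fabp4CKO libraries, at 2.46, 2.93 and 0.957 CPM in ICH-Fabp4fl/fl and at 0.970, 0.746 and 0.765 CPM in ICH-Fabp4CKO. It rose in Fabp4fl/fl (log2 fold change 3.52 ± 0.59, adjusted p = 0.00357), and ICH-Fabp4CKO was at least 6.04-fold higher than Sham-Fabp4CKO at a floor of 3 counts per library. Ctse, an aspartic protease of immune and epithelial cells, stood at 0.337, 0 and 0.103 CPM in Sham-Fabp4fl/fl and 0.0462, 0 and 0.138 CPM in Sham-Fabp4CKO. After ICH it was 1.41, 1.75 and 1.33 CPM in Fabp4fl/fl and 4.72, 2.61 and 5.30 CPM in Fabp4CKO, so that the 4.21 ± 1.42 CPM (SD, n = 3) of ICH-Fabp4CKO was the highest group mean. Its log2 fold change in Fabp4fl/fl was 3.2 ± 0.75 (adjusted p = 0.0128, and 0.0526 without ICH-Fabp4fl/fl mouse 2), and 4.56 without Sham-Fabp4fl/fl mouse 1. In Fabp4CKO, 219 reads against 4 gave a ratio of 68.5 (95% exact interval 26.4 to 254, counting error only).

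Ctsa, a serine carboxypeptidase that also stabilises lysosomal beta-galactosidase and neuraminidase, went from 121, 103 and 108 CPM in Sham-Fabp4fl/fl and 93.2, 110 and 95.7 CPM in Sham-Fabp4CKO to 607, 373 and 335 CPM in ICH-Fabp4fl/fl and 1008, 415 and 1553 CPM in ICH-Fabp4CKO. It rose in both genotypes without overlap (log2 fold change 1.94 ± 0.24 and 3.32 ± 0.49). The other serine cathepsin, Ctsg of neutrophil granules, had at most 1 read in any library and was not tested, as were Ctsj, Ctsm, Ctsq and Ctsr, members of a cluster of placental cathepsins.

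The 4 other enzymes and progranulin rose in both genotypes. Grn, which encodes the lysosomal glycoprotein progranulin, was 75.6, 55.7 and 52.8 CPM in Sham-Fabp4fl/fl, 50, 53.8 and 53.2 CPM in Sham-Fabp4CKO, 979, 674 and 511 CPM in ICH-Fabp4fl/fl and 1649, 564 and 2771 CPM in ICH-Fabp4CKO. Its log2 fold change was 3.51 ± 0.29 and 4.99 ± 0.62. Gusb, beta-glucuronidase, was 15.7, 15.2 and 14.2 CPM in Sham-Fabp4fl/fl, 16.7, 12.1 and 14.5 CPM in Sham-Fabp4CKO, 236, 155 and 110 CPM in ICH-Fabp4fl/fl and 440, 118 and 720 CPM in ICH-Fabp4CKO, with log2 fold changes of 3.42 ± 0.28 and 4.88 ± 0.69. For both, every ICH library exceeded every sham library. Lgmn, the asparaginyl endopeptidase that processes cathepsins, rose by 2.57 and 3.47 on the log2 scale. Lipa, the acid lipase of cholesteryl esters and triglycerides, was 195, 161 and 96 CPM in ICH-Fabp4fl/fl and 334, 77.3 and 718 CPM in ICH-Fabp4CKO, above its sham range of 21.3 to 29 CPM. It rose by 2.42 and 4.01, and Hexa, the alpha subunit of beta-hexosaminidase, by 1.68 and 3.32.

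Among the membrane proteins, Cd68, a glycoprotein of macrophage endosomes and lysosomes, rose most of the members tested in Fabp4fl/fl mice. Its CPM was 21.1, 8.93 and 11.6 in Sham-Fabp4fl/fl, 9.80, 12.6 and 9.24 in Sham-Fabp4CKO, 566, 362 and 220 in ICH-Fabp4fl/fl and 1079, 230 and 1957 in ICH-Fabp4CKO. ICH and sham did not overlap, with log2 fold changes of 4.74 ± 0.47 (adjusted p = 0.00052) and 6.69 ± 0.87 (adjusted p = 0.00634). Cd63, a tetraspanin of late endosomes, rose by 2.50 and 3.45. Lamp2 and Lamp1, the heavily glycosylated proteins that line the lysosomal membrane, rose by 1.44 and 0.89 in Fabp4fl/fl and by 2.60 and 1.64 in Fabp4CKO. Mcoln1, the calcium channel TRPML1, did not pass: it was 41.9, 38.6 and 42.7 CPM in Sham-Fabp4fl/fl, 41.2, 48.5 and 43.1 in Sham-Fabp4CKO, 36.5, 42.4 and 37.6 in ICH-Fabp4fl/fl and 38.3, 43.1 and 49.5 in ICH-Fabp4CKO. Its groups overlapped, with log2 fold changes of -0.12 ± 0.13 and -0.02 ± 0.14.

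Tfeb and Tfe3, basic helix-loop-helix factors that drive lysosomal genes, are controlled largely by their movement into the nucleus, which RNA levels do not show. Tfeb stood at 16, 14.5 and 10.6 CPM in Sham-Fabp4fl/fl, 10.1, 10.6 and 10.5 in Sham-Fabp4CKO, 30.2, 27.4 and 22.9 in ICH-Fabp4fl/fl and 26.6, 16.5 and 24.9 in ICH-Fabp4CKO. Tfe3 stood at 36.2, 34.5 and 35.5 CPM in Sham-Fabp4fl/fl, 32.9, 39.7 and 30.1 in Sham-Fabp4CKO, 70.5, 57.4 and 56.3 in ICH-Fabp4fl/fl and 65.8, 55.5 and 88.2 in ICH-Fabp4CKO. Both rose in both genotypes without overlap, Tfeb by 0.93 ± 0.19 and 1.12 ± 0.21 and Tfe3 by 0.75 ± 0.13 and 1.03 ± 0.21 on the log2 scale.

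**Figure D2:**
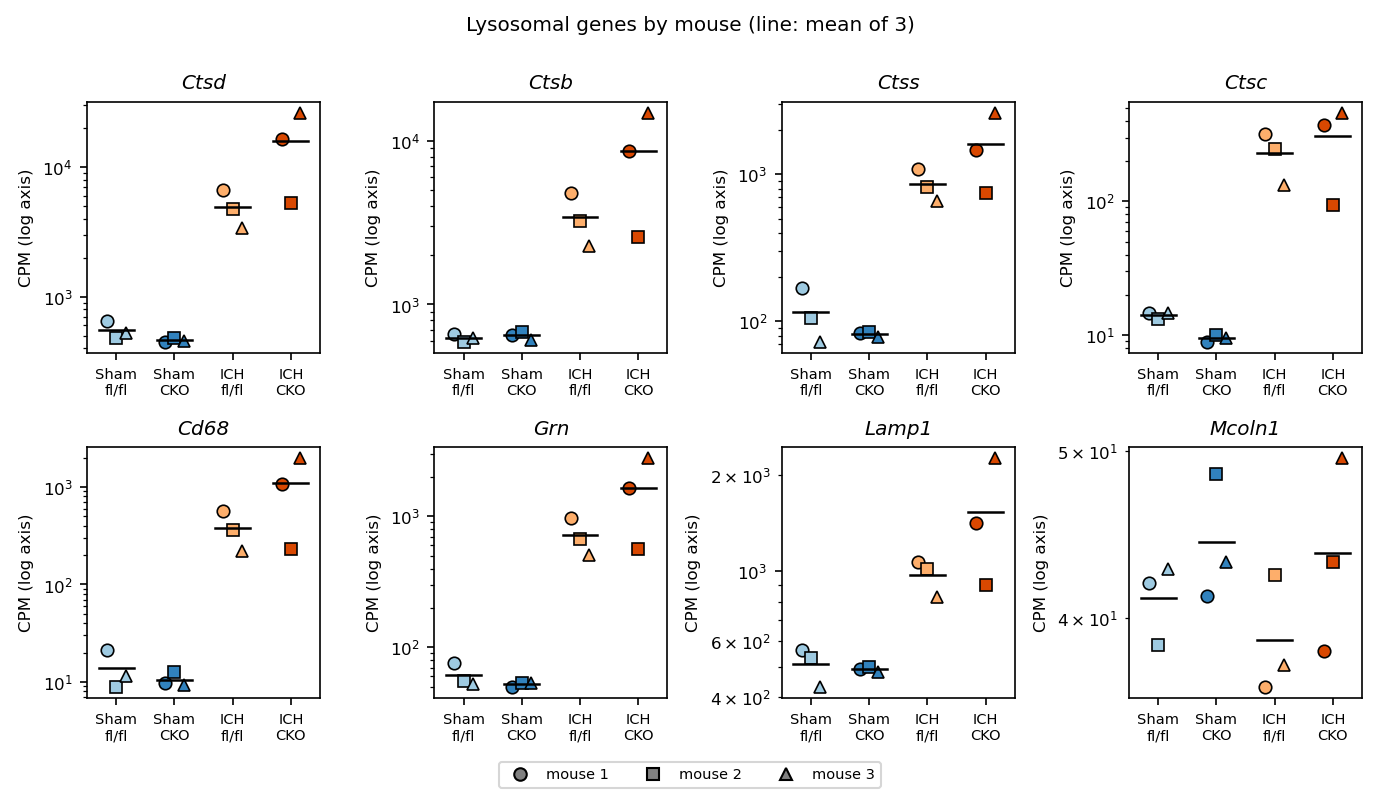
CPM on log axes by mouse for 8 members in the 4 groups, with a line at the mean of 3 mice. In the panels other than Mcoln1 every ICH library lies above every sham library, and ICH-Fabp4CKO mouse 2 (square) lies below the means of both ICH groups or, for Ctsd, between them.

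Per kilobase of exon, the order of the members changed with ICH. In Sham-Fabp4fl/fl, Ctsd (234 CPM per kb), Atp6v0c (197) and Lamp1 (190) led, and Atp6v1g2 (148) followed. In ICH-Fabp4fl/fl the order was Ctsd (2113), Ctss (629), Ctsb (565) and Lgmn (462), and in ICH-Fabp4CKO Ctsd (6781), Ctsb (1434), Ctss (1177) and Cd68 (866). The SD over mice was 702 for Ctsd, 160 for Ctss, 209 for Ctsb and 140 for Lgmn in ICH-Fabp4fl/fl, and 4410, 1000 and 690 for Ctsd, Ctsb and Ctss in ICH-Fabp4CKO. Among the members named here for the ICH groups, the SDs of neighbours below Ctsd were larger than the differences between their means. Within ICH-Fabp4fl/fl the order of Ctss, Ctsb and Lgmn was nevertheless the same in all 3 mice.

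Most tested V1 subunits fell in Fabp4fl/fl. Of the 13 V1 symbols, 10 were tested in Fabp4fl/fl, of which 7 fell and 1 rose after ICH. Atp6v1a, the catalytic subunit A, was 415, 463 and 356 CPM in Sham-Fabp4fl/fl and 197, 232 and 212 CPM in ICH-Fabp4fl/fl, a fall without overlap (log2 fold change -0.98 ± 0.17, adjusted p = 0.00427). In Fabp4CKO it was 372, 339 and 388 CPM in sham and 305, 336 and 434 CPM after ICH, where the groups overlapped and the change was -0.03 ± 0.18 (adjusted p = 0.901). Atp6v1b2, the nucleotide-binding subunit B, fell by 0.95 in Fabp4fl/fl, and its change in Fabp4CKO was -0.43 (adjusted p = 0.0753). Atp6v1h, the regulatory subunit H, fell in both genotypes (log2 fold change -0.78 and -0.48). Atp6v1g2, Atp6v1c1, Atp6v1d and Atp6v1e1, subunits of the stalks that join V1 to V0, fell in Fabp4fl/fl by 0.89, 0.61, 0.52 and 0.49, and in Fabp4CKO their changes of -0.88, -0.19, -0.48 and -0.38 did not pass.

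Of the other tested V1 members, Atp6v1g1 rose and Atp6v1f and Atp6v1c2 did not pass. Atp6v1g1, the broadly expressed paralogue of subunit G, was 81.3, 70.8 and 76.8 CPM in Sham-Fabp4fl/fl, 73.1, 64.7 and 73.7 in Sham-Fabp4CKO, 168, 106 and 97.6 in ICH-Fabp4fl/fl and 132, 81.3 and 157 in ICH-Fabp4CKO. It rose without overlap (log2 fold change 0.65 ± 0.21, adjusted p = 0.0386, and 0.81 ± 0.25, adjusted p = 0.0468), but in Fabp4fl/fl the call was lost without Sham-Fabp4fl/fl mouse 1, 2 or 3 or ICH-Fabp4fl/fl mouse 1 or 2 (adjusted p 0.0617 to 0.146). Atp6v1f, subunit F, was 59.7, 53.2 and 52.6 CPM in Sham-Fabp4fl/fl and 86.8, 64.4 and 68.9 in ICH-Fabp4fl/fl. In Fabp4CKO it was 51.2, 51.6 and 50.2 CPM in sham and 66.2, 52.3 and 64.9 after ICH. It did not overlap between ICH and sham, and its log2 fold changes of 0.37 ± 0.15 (adjusted p = 0.0763) and 0.26 ± 0.13 did not pass. Atp6v1c2, an epithelial paralogue of subunit C, was 0.530, 0.931 and 2.32 CPM in Sham-Fabp4fl/fl, 1.2, 1.75 and 2.76 in Sham-Fabp4CKO, 0.211, 0.0624 and 0.797 in ICH-Fabp4fl/fl and 0.582, 1.07 and 0.383 in ICH-Fabp4CKO. Its changes of -1.77 ± 0.87 and -1.47 ± 0.50, the most negative of the tested members, did not pass. In Fabp4CKO its ICH libraries all lay below the sham libraries. In Fabp4fl/fl its change was -1.02 without Sham-Fabp4fl/fl mouse 3, -3.24 (adjusted p = 0.0296) without ICH-Fabp4fl/fl mouse 3, and -1.96 (adjusted p = 0.0441) with the replicate number as a block.

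Of the 9 V0 symbols, 7 were tested in Fabp4fl/fl. Atp6v0a1, the main neuronal paralogue of subunit a, was 427, 458 and 526 CPM in Sham-Fabp4fl/fl and 182, 226 and 290 in ICH-Fabp4fl/fl, and 505, 534 and 510 in Sham-Fabp4CKO and 257, 381 and 252 in ICH-Fabp4CKO. It fell in both genotypes without overlap (log2 fold change -1.05 ± 0.23 and -0.80 ± 0.20). Atp6v0e, a small membrane subunit, rose from 23.9, 17.8 and 22.9 CPM in Sham-Fabp4fl/fl to 102, 69.5 and 50.1 in ICH-Fabp4fl/fl, and from 18.2, 20.9 and 21.2 in Sham-Fabp4CKO to 84.4, 34.5 and 125 in ICH-Fabp4CKO (log2 fold change 1.73 ± 0.26 and 2.02 ± 0.45, no overlap). Its brain-enriched paralogue Atp6v0e2 was 337, 349 and 306 CPM in Sham-Fabp4fl/fl, 307, 331 and 322 in Sham-Fabp4CKO, 177, 224 and 281 in ICH-Fabp4fl/fl and 159, 280 and 102 in ICH-Fabp4CKO. It did not overlap either, but its changes of -0.57 ± 0.22 (adjusted p = 0.0623) and -0.83 ± 0.36 (adjusted p = 0.104) did not pass.

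Atp6v0a2, a Golgi and endosomal paralogue of subunit a, was 81.6, 81.7 and 89.1 CPM in Sham-Fabp4fl/fl, 90.4, 97.6 and 90.1 in Sham-Fabp4CKO, 115, 167 and 126 in ICH-Fabp4fl/fl and 126, 118 and 119 in ICH-Fabp4CKO. It rose in both (0.65 ± 0.17, adjusted p = 0.02, and 0.39 ± 0.11, adjusted p = 0.0372). In Fabp4fl/fl the adjusted p was 0.0542 to 0.0935 without Sham-Fabp4fl/fl mouse 1, 2 or 3 or ICH-Fabp4fl/fl mouse 2. The proton-carrying ring subunits Atp6v0c and Atp6v0b and the d subunit Atp6v0d1 had changes of -0.19 to 0.10 in both genotypes, none of which passed. Of the accessory proteins, Atp6ap2, the (pro)renin receptor, was 258, 277 and 225 CPM in Sham-Fabp4fl/fl, 209, 198 and 214 in Sham-Fabp4CKO, 161, 159 and 179 in ICH-Fabp4fl/fl and 179, 174 and 205 in ICH-Fabp4CKO. It fell in Fabp4fl/fl (-0.64 ± 0.16, adjusted p = 0.0151, but 0.0581 without Sham-Fabp4fl/fl mouse 2 and 0.0588 without ICH-Fabp4fl/fl mouse 2). Atp6ap1 was 393, 379 and 372 CPM in Sham-Fabp4fl/fl, 371, 398 and 377 in Sham-Fabp4CKO, 361, 361 and 338 in ICH-Fabp4fl/fl and 389, 366 and 449 in ICH-Fabp4CKO. Its changes of -0.15 and 0.07 did not pass, nor did those of Atp6ap1l, -0.14 and -0.15. Atp6v0a4, Atp6v1b1, Atp6v1e2, Atp6v1fnb and Atp6v1g3 had at most 4 reads in any library and were not tested.

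The reads of a subunit were also divided among its paralogues within each library, as shares of counts not corrected for length. Of subunit a, Atp6v0a1 held 83.4% ± 1.05 (SD, n = 3) in Sham-Fabp4fl/fl, and 44.7%, 49.4% and 63.7% in the ICH-Fabp4fl/fl libraries and 52.5%, 70.5% and 47.8% in the ICH-Fabp4CKO libraries. The share of Tcirg1, the paralogue known from osteoclasts and macrophages, whose symbol is outside the rule, was 1.34% to 2.1% in sham libraries, 26.9%, 14.1% and 8.58% in ICH-Fabp4fl/fl and 21.9%, 7.65% and 29.5% in ICH-Fabp4CKO. The ICH and sham libraries were separated for both genes in both genotypes. Of subunit e, Atp6v0e held 4.85% to 6.97% in sham libraries, 36.6%, 23.7% and 15.1% in ICH-Fabp4fl/fl and 34.7%, 11% and 54.9% in ICH-Fabp4CKO. Of subunit G, Atp6v1g1 held 14.1% to 18.6% in sham libraries, 52.1%, 36% and 26.5% in ICH-Fabp4fl/fl and 44.5%, 19.3% and 59% in ICH-Fabp4CKO.

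**Figure D3:**
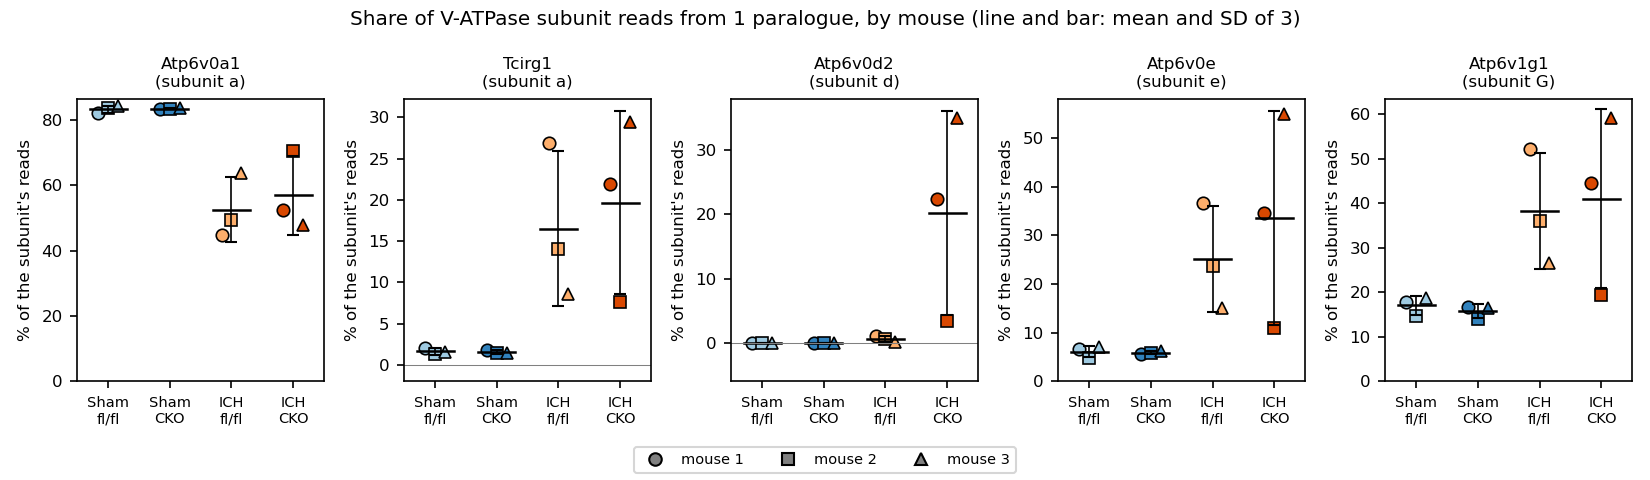
Share of a V-ATPase subunit's reads held by 1 paralogue (percent), by mouse, with the mean and SD of 3 mice per group. The shares of Tcirg1, Atp6v0e and Atp6v1g1 are higher and that of Atp6v0a1 is lower in ICH than in sham libraries, and Atp6v0d2 exceeds 2% in the ICH-Fabp4CKO libraries, at 22.4%, 3.37% and 35%.

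Markers of other cell types moved with these genes. All 10 markers of monocytes and macrophages rose in both genotypes, against 26.2% and 24.5% of all genes. Only 4 of the 10 passed the filter between the sham groups. The others passed it against sham through the ICH libraries, so that their calls largely follow from it. The summed level of the 10 was 77.6 to 101 CPM in sham libraries, 2614, 1530 and 652 CPM in ICH-Fabp4fl/fl and 2883, 559 and 3416 CPM in ICH-Fabp4CKO. Of these, Ly6c2, Ccr2 and Chil3 were at 0 in some or all Sham-Fabp4CKO libraries and none was at 0 after ICH. Over the 25 tested members outside the V-ATPase, ICH-Fabp4fl/fl mouse 1 was highest of its group for 20 and mouse 3 lowest for 23, and ICH-Fabp4CKO mouse 3 was highest for 22 and mouse 2 lowest for 22, the order of the macrophage sums. This order was not particular to macrophage markers. Neutrophil sums had it in both ICH groups, and the sums of neurons, striatal projection neurons and astrocytes had its reverse in both. Microglial markers, of which 6 of 7 rose in each genotype, summed to 200 to 237 CPM in sham, 732 to 828 in ICH-Fabp4fl/fl and 671 to 1285 in ICH-Fabp4CKO libraries. Their part in the rise of the lysosomal genes was not tested.

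Of the 9 general markers of neurons, 7 fell in Fabp4fl/fl and 1 in Fabp4CKO, against 19.3% and 11.1% of all genes. The medians were close, -1.17 and -1.13 on the log2 scale, with 9 and 8 negative changes. In each genotype 8 of the 9 markers lay below sham without overlap, against 27.4% of all genes in Fabp4fl/fl and 28.9% in Fabp4CKO. The sum of the 9 was 4763 to 6270 CPM in sham, 1586, 2502 and 3418 CPM in ICH-Fabp4fl/fl and 2109, 4431 and 1430 CPM in ICH-Fabp4CKO, and none was at 0. Of the 8 striatal projection neuron markers, 0 passed in Fabp4fl/fl, where 7 changes were negative (median -0.37). The sums there were 1428 to 4427 CPM in sham and 1214 to 3784 CPM after ICH. In Fabp4CKO 2 of the 8 fell and all 8 changes were negative (median -1.1). The sums there were 2985 to 5242 CPM in sham and 1179 to 2802 CPM after ICH, without overlap. The V-ATPase symbols together took 0.503% to 0.544% of counts in sham, 0.331%, 0.362% and 0.402% in ICH-Fabp4fl/fl and 0.384%, 0.456% and 0.38% in ICH-Fabp4CKO, and the part of neuronal RNA in this was not tested. The members outside the V-ATPase took 0.262% to 0.333% in sham, 1.92%, 1.52% and 1.11% in ICH-Fabp4fl/fl and 3.87%, 1.35% and 5.8% in ICH-Fabp4CKO.

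**Figure D4:**
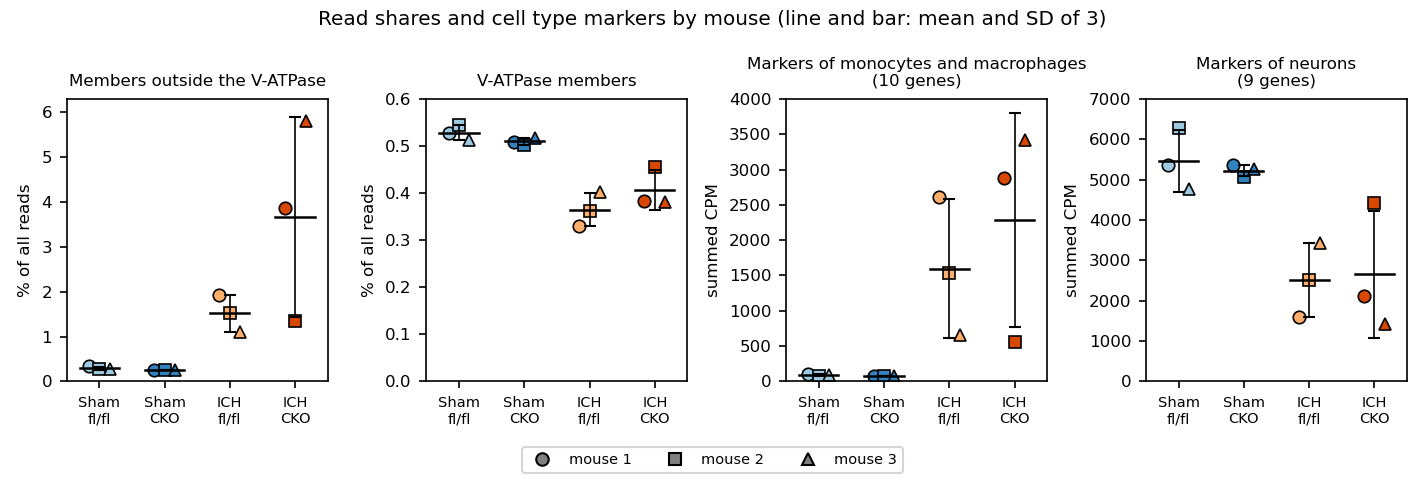
Percent of all reads from members outside the V-ATPase and from V-ATPase members, and summed CPM of 10 monocyte and macrophage markers and 9 neuron markers, by mouse, with the mean and SD of 3 mice. Within each ICH group the mice stand in the same order for the lysosomal share and the macrophage markers, mouse 1 highest in Fabp4fl/fl and mouse 3 in Fabp4CKO. For the neuron markers they stand in the reverse order.

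No member passed between ICH-Fabp4CKO and ICH-Fabp4fl/fl after adjustment over all genes, which does not show that the members were equal. In simulated data this comparison recovered 0 of 48 genes changed 1.5-fold, 7 of 47 changed 2-fold and 22 of 49 changed 3-fold. The simulation gave each gene a single spread, estimated over all 12 libraries, sham included. The ICH-Fabp4CKO libraries differed more among themselves than the Sham-Fabp4CKO libraries, so that it may overstate the recovery in this comparison. This comparison shares its libraries with the comparisons of ICH and sham. Of 45 tested members, 0 passed with edgeR, as did 0 of 14600 genes (0%). At an unadjusted p under 0.05, 6 members were higher and 1 lower, against 6.36% and 5.82% of all genes. The log2 fold change was positive for 38 members and negative for 7, with a median of 0.42, and positive for 56.2% of all genes, with a median of 0.06. All libraries of ICH-Fabp4CKO exceeded all of ICH-Fabp4fl/fl for 8 members (Atp6v0d2, Ctse, Atp6v1a, Hexa, Atp6v1b2, Atp6v1c1, Atp6ap1 and Ctso), against 8.3% of genes, and the reverse held for 0, against 11.5%. The 6 and the 8 both include Atp6v0d2, which passed the filter here through the ICH-Fabp4CKO libraries, where it was high. Leaving out any 1 of the 6 libraries, ICH-Fabp4CKO mouse 1 or mouse 2 included, left 0 called, while DESeq2 called 4 members higher (3.96% of all genes in either direction) and a fit of all 12 libraries 2 (2.4%).

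Atp6v0d2, a d subunit paralogue known from osteoclasts and macrophages, had the smallest p. It had 1, 1 and 0 reads in the libraries of each sham group, 28, 14 and 6 reads in ICH-Fabp4fl/fl and 761, 124 and 1775 reads in ICH-Fabp4CKO, or 1.97, 0.873 and 0.319 CPM against 49.2, 6.61 and 97.1 CPM. The lowest knockout library exceeded the highest control library. The log2 fold change was 5.70 ± 1.14 (unadjusted p = 0.00194, adjusted p = 0.295), with an adjusted p of 9.99e-07 in DESeq2 and 0.0238 with all 12 libraries. It was 6.47 without ICH-Fabp4fl/fl mouse 1, 6.23 without ICH-Fabp4CKO mouse 2 and 4.82 without ICH-Fabp4CKO mouse 3 (adjusted p 0.0564 to 0.642). Against sham, 48 reads against 2 in Fabp4fl/fl gave a ratio of 28.6 (95% exact interval 7.48 to 243) and 2660 against 2 in Fabp4CKO a ratio of 1664 (460 to 13748), both for counting error only. It passed the filter in Fabp4CKO only through the ICH libraries, and in Fabp4fl/fl it was not tested. Between the ICH groups it passed through the ICH-Fabp4CKO libraries, where it was high, so that its difference there is not independent of the filter. Its share of d subunit reads was 1.05%, 0.549% and 0.168% in ICH-Fabp4fl/fl and 22.4%, 3.37% and 35% in ICH-Fabp4CKO. The interaction of ICH and genotype was 5.78 ± 3.96 (adjusted p = 0.665), a fit that rests on sham groups of 2 reads each.

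For the other members named by p, the values by library are those given above with the response to ICH. Ctse was higher in ICH-Fabp4CKO by 1.54 ± 0.36 on the log2 scale (unadjusted p = 0.00447, adjusted p = 0.295, DESeq2 0.0133) and Atp6v1a by 0.80 ± 0.21 (unadjusted p = 0.00748, adjusted p = 0.313, DESeq2 0.0144). Hexa was 238, 233 and 180 CPM in ICH-Fabp4fl/fl and 652, 253 and 1124 CPM in ICH-Fabp4CKO, against 68.8, 57.7 and 71.1 and 64.8, 73.6 and 64.7 CPM in the sham groups. Its knockout libraries lay above the others, mouse 2 narrowly, with a log2 fold change of 1.70 ± 0.52 (unadjusted p = 0.0147, adjusted p = 0.339, DESeq2 0.0405). Ctsd, whose groups overlapped through mouse 2, differed by 1.75 ± 0.62 (unadjusted p = 0.028, adjusted p = 0.36) and Ctsa by 1.24 ± 0.50 (unadjusted p = 0.044, adjusted p = 0.398). Ctsw was the member with the most negative difference, -1.28 ± 0.48 (unadjusted p = 0.035, adjusted p = 0.379), and the 7 T and NK cell markers summed to 10.5, 15.6 and 8.82 CPM in ICH-Fabp4fl/fl and 5.63, 3.09 and 4.43 CPM in ICH-Fabp4CKO. The part of these cells in the Ctsw difference was not tested.

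Macrophage marker sums overlapped between the ICH groups, and 0 of the 10 passed between them, as did 0 of 14600 genes, which does not show that they were equal. The log2 fold change was positive for 8 of the 10 and negative for 2, with a median of 0.55. Over all genes 56.2% were positive, with a median of 0.06. Neutrophil markers summed to 17.8 to 52.5 CPM in ICH-Fabp4fl/fl and 19 to 270 CPM in ICH-Fabp4CKO. Oligodendrocyte markers summed to 19244 to 29301 CPM against 7311 to 11822 CPM and endothelial markers to 525 to 1164 CPM against 286 to 388 CPM, so that these 2 sums did not overlap between the ICH groups. Mitochondrial genes took 16.31%, 10.36% and 11.92% of counts in the ICH-Fabp4fl/fl libraries and 8.37%, 9.5% and 7.9% in ICH-Fabp4CKO, also without overlap, against 8.39% to 9.95% in sham libraries. The part of any of these in the genotype differences was not tested.

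**Figure D5:**
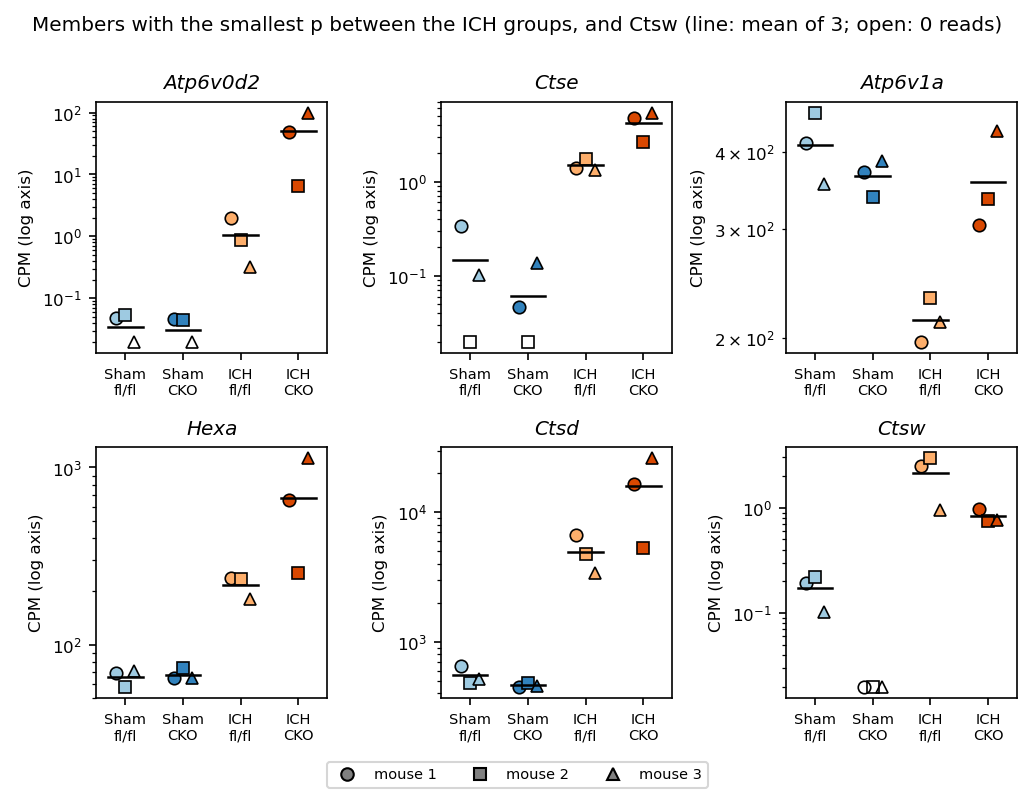
CPM on log axes by mouse for the 5 members with the smallest p between the ICH groups and for Ctsw, with a line at the mean of 3. Open symbols at the bottom mark libraries with 0 reads. For Atp6v0d2, Ctse, Atp6v1a and Hexa the 3 ICH-Fabp4CKO mice lie above the 3 ICH-Fabp4fl/fl mice.

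The difference between the responses of the genotypes was tested as an interaction over 12 libraries. It used the same libraries as the comparisons above, and 0 of 46 tested members passed with edgeR, against 2 of 15089 genes higher (0.0133%) and 1 lower (0.00663%). At an unadjusted p under 0.05, 10 members were higher and 0 lower, against 5.57% and 4.37% of genes. The 10 include Ctsw (3.4) and Ctse (2.72), which had at most 7 reads in a sham library and passed the filter only through ICH libraries. Ctsw had 0 reads in every Sham-Fabp4CKO library and was lower in ICH-Fabp4CKO than in ICH-Fabp4fl/fl (-1.28), so that its interaction rests on the sham libraries. The median was 0.47 over the members and 0.03 over all genes. The smallest p values were those of Atp6v1a (0.91 ± 0.23, adjusted p = 0.269, 0.00963 with DESeq2, which called no other member), Ctsd (1.93 ± 0.65, adjusted p = 0.367) and Hexa (1.60 ± 0.55, adjusted p = 0.38). Without ICH-Fabp4CKO mouse 2, 7 members passed (Ctsa, Ctsd, Grn, Gusb, Hexa, Lamp2 and Lipa, adjusted p 0.0195 to 0.0435), all with a larger rise in Fabp4CKO, and 2.42% of all genes passed in that fit.

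Between the sham groups 0 of 43 tested members passed with edgeR, against 16 of 14395 genes (0.111%), all 16 lower. At an unadjusted p under 0.05, 0 members were higher and 6 lower, against 4.15% and 6.07% of genes, and the median was -0.09 over the members and 0.00 over all genes. Ctsc differed by -0.57 ± 0.11 (unadjusted p = 0.00107, adjusted p = 0.236), and its sham libraries, given above, did not overlap. Lamp2 was 118, 111 and 103 CPM in Sham-Fabp4fl/fl and 79.3, 80.2 and 87.7 CPM in Sham-Fabp4CKO (-0.41 ± 0.09, unadjusted p = 0.00153, adjusted p = 0.263). Cd63 was 79.5, 61.8 and 63.2 CPM and 48.6, 48.8 and 53.4 CPM (-0.43 ± 0.11, unadjusted p = 0.00597, adjusted p = 0.406). For these 3 genes the knockout libraries lay below the others without overlap, as for 10 members in all (8.86% of genes), while 2 lay above (5.97%). DESeq2 called Ctsc (adjusted p = 0.0274) and Lamp2 (0.0176), and 8 members passed without Sham-Fabp4fl/fl mouse 3 (Atp6ap2, Cd63, Ctsc, Ctsl, Ctss, Lamp2, Lgmn and Tfeb), where 19.6% of all genes passed. That library stood apart from mice 1 and 2 of its group in the summed markers of striatal projection neurons (4427 CPM against 1428 and 1645) and of oligodendrocytes (8900 CPM against 14809 and 15591).

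Other genes of the lysosomal system were taken from lists kept apart from the members, to be read against the 26.2% higher and 19.3% lower of all genes in Fabp4fl/fl and 24.5% and 11.1% in Fabp4CKO. Of 36 other hydrolases 35 were tested, and 27 rose and 1 fell in each genotype, with medians of 1.03 and 1.89. Acp5, the tartrate-resistant acid phosphatase, rose most in Fabp4fl/fl (5.96) and Gaa, acid alpha-glucosidase, fell (-1.15). Each of the 5 activator and lipid transfer proteins rose in both (medians 1.57 and 2.12), among them the saposin precursor Psap, by 0.79 and 2.12. Of 30 other membrane proteins and transporters, 12 rose and 2 fell in Fabp4fl/fl and 17 rose and 2 fell in Fabp4CKO, with Gpnmb highest (4.96 in Fabp4fl/fl) and the chloride transporter Clcn6 lowest (-0.92). Between the sham groups 28 of the 30 passed the filter. Mcoln2 and Mcoln3 did not, and they are among those that rose in both genotypes, so that their calls largely follow from the filter. Of 16 cathepsin inhibitors 10 were tested, and 7 rose and 0 fell in each genotype, led in Fabp4fl/fl by Serpina3n (5.53). Between the sham groups 9 inhibitors passed the filter.

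The lists nearer to trafficking and control were mixed. Of 15 mannose 6-phosphate and sorting factors, 3 rose and 4 fell in Fabp4fl/fl and 4 rose and 1 fell in Fabp4CKO, between Nagpa (1.60) and the sorting receptor Sorl1 (-0.98) in Fabp4fl/fl. Of 19 MiT/TFE and nutrient sensing genes, which include Tfeb's relatives, 6 rose and 5 fell, and 6 rose and 4 fell, with Tfec at 5.45 and Rragb at -1.36 in Fabp4fl/fl. Between the sham groups 18 of the 19 passed the filter. Of 12 V-ATPase assembly factors 11 were tested, and 0 rose in either genotype while 5 and 3 fell, with Dmxl2 lowest in Fabp4fl/fl (-1.33). In none of these lists did a gene pass between the ICH groups with edgeR. At an unadjusted p under 0.05, 9 of the 35 hydrolases were higher in ICH-Fabp4CKO and 0 lower, against 6.36% and 5.82% of all genes. The counts were 6 and 0 of the 30 membrane proteins, 3 and 0 of the 15 sorting factors and 3 and 0 of the 19 MiT/TFE and nutrient sensing genes. They were 1 and 0 of the 11 assembly factors, 0 and 0 of the 5 activator and lipid transfer proteins and 1 and 1 of the 10 inhibitors.

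The letters CACGTG, an E-box that MiT/TFE factors and other basic helix-loop-helix factors can bind, were sought from 250 bases before to 50 bases after the transcription start (RefSeq, GRCm38.p6). The word reads the same on both strands, and TCACGTGA contains it. Of the 56 members, 45 were matched by symbol, and 11 of these (24.4%) held CACGTG, against 8.09% of 27025 genes and 7.15% of 32851 windows. TCACGTGA was in 6 (13.3%), against 1.12% of genes and 0.974% of windows. A match is a description of letters, not of binding. Of the 11 holders, 6 rose, 1 fell and 4 did not pass in Fabp4fl/fl, and of the 24 tested members without the word 14 rose, 5 fell and 5 did not pass.

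Stretches near the transcription start of 4 holders are printed because the holders moved differently with ICH, with CACGTG in capitals: Lamp1 (chr8:13159091-13159155, plus strand, 4 copies) and Ctsd (chr7:142387903-142387942, minus strand) rose in both genotypes, Atp6v1a (chr16:44139370-44139409, minus strand) fell in Fabp4fl/fl and Mcoln1 (chr8:3500439-3500488, plus strand, 2 copies) did not pass in either.
Lamp1: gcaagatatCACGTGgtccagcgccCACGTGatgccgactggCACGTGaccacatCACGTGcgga
Ctsd: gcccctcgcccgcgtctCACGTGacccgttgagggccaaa
Atp6v1a: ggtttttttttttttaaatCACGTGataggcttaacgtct
Mcoln1: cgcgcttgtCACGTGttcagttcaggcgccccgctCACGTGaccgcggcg

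The windows of Ctsa, Atp6v0d1, Atp6v0e, Atp6v0b, Ctsf, Ctsl and Lgmn also held CACGTG. Those of Ctsc, Ctsz, Cd68, Grn and Gusb, which rose more than Lamp1, did not. The printed Lamp1 and Ctsd stretches thus belong to genes that rose by 0.89 and 3.13 on the log2 scale in Fabp4fl/fl, and the printed Atp6v1a stretch to one that fell by 0.98.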

How the data were processed

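RNA was measured by poly(A)-selected RNA-seq in 12 libraries, 1 per mouse. The authors deposited estimated counts (expected counts) per gene, not normalized, of which 7.36% to 8.69% per library were not whole; they were rounded. The submitters' processing notes name Bowtie2 2.2.8, HISAT2, StringTie 1.3.1 and DESeq2 without stating their roles, and the genome build is not given in the sources used here. Groups followed the sample titles. Counts were tested with edgeR 4.0.16 in R 4.3.3 by its quasi-likelihood F-test after TMM scaling; filterByExpr kept genes at its defaults (count 10, total 15). Each fit held only the 2 groups compared, or all 12 libraries for the interaction, with Benjamini-Hochberg adjustment over all genes tested at 0.05. Fold changes are TMM-based, CPM uses TMM-scaled library sizes, and SE is the standard error of a log2 fold change. No replicates of a group were copies of each other. Exon lengths came from GENCODE for GRCm38, used for levels per kilobase only; promoters came from RefSeq.

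Members were grouped by role. Values by library are given for the tested extremes of each role group in ICH-Fabp4fl/fl against Sham-Fabp4fl/fl, the 5 smallest p between ICH groups and the 3 smallest in the interaction and between sham groups. Ctsb and Lipa were added after their values were seen. The members, gene lists and tests were chosen with earlier results of these data known. A gene at or under 3 counts was treated as at the floor; intervals cover counting error only. Reads shared between similar genes, such as the placental cathepsins, are uncertain. The tests were checked on simulated data. Alternatives were other scalings, DESeq2 1.42.0, other filters, a replicate block, 1 fit of all libraries, a 1.5-fold threshold and each library left out. Tables and figures used Python 3.11.15, numpy 2.4.6, pandas 2.3.3 and matplotlib 3.10.9.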

Additional observations from a re-analysis of the deposited data

How the results depend on the processing

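Directions held for all named members under every alternative run: of their single values 360 kept direction and side of the threshold, 16 newly passed and 12 no longer passed, and 0 reversed. Of the counts of members past the threshold 139 stayed within 1.5 times the main count and 21 did not. With DESeq2, 6 members fell in Fabp4CKO after ICH instead of 2, 4 instead of 0 were higher in ICH-Fabp4CKO than in ICH-Fabp4fl/fl, 2 instead of 0 were lower in Sham-Fabp4CKO, and 1 instead of 0 was higher in the interaction. In 1 fit of all 12 libraries, 5 members fell in Fabp4CKO and 2 were higher in ICH-Fabp4CKO than in ICH-Fabp4fl/fl. With a fold change of at least 1.5 added, 1 member fell in Fabp4CKO. Leaving out 1 library at a time gave 21 to 27 higher and 4 to 12 lower members in Fabp4fl/fl, 10 to 28 higher and 0 to 8 lower in Fabp4CKO, 0 to 0 in either direction between the ICH groups, 0 to 8 lower between the sham groups and 0 to 7 higher in the interaction. With DESeq2 the genes called in Fabp4CKO after ICH were 4154 higher and 3543 lower, against 3605 and 1642 with edgeR. The cause of these moves was not tested. Another scaling moved the median of all genes to 0.10 at most (upper quartile, Fabp4fl/fl), and the counts of higher and lower members were then 26 and 8.

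Libraries were treated as unpaired, since no comparison had every same-numbered pair correlated above 0.1, a rule that cannot exclude a pairing. In Fabp4fl/fl the same-numbered ICH and sham libraries correlated at 0.254, 0.059 and 0.183, with a mean of 0.165 against -0.08 for other pairs. With the replicate number as a block, 26 members rose and 10 fell in Fabp4fl/fl, 24 rose and 1 fell in Fabp4CKO, and 0 passed in the other comparisons.

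Ctsd ranged from 5336 to 26052 CPM within ICH-Fabp4CKO. Atp6v0d2, Ctse and Ctsw rest on few reads in sham libraries.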

Other observations

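The placental cathepsins Ctsj, Ctsq and Ctsr had 41, 39 and 4 reads in Sham-Fabp4CKO mouse 3, or 1.89, 1.79 and 0.184 CPM, and at most 3 reads in any other library. Their sequences resemble each other, so that reads could be shared among them, and none was tested.

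Among genes that are not members, chosen after their values were seen, Gpnmb, a membrane glycoprotein of macrophages, had a median of 558 CPM in ICH-Fabp4fl/fl and 3657 CPM in ICH-Fabp4CKO, with ranges of 271 to 609 and 588 to 7757 CPM. Mcoln3, a paralogue of Mcoln1, had 1.06 to 2.06 CPM and 4.00 to 26.6 CPM. Neither passed between the ICH groups (adjusted p = 0.332 and 0.295, edgeR).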
